A study of Caenorhabditis elegans with 12 samples.

Results

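The 10 genes described here carry the insulin/IGF-1-like signal of Caenorhabditis elegans from its receptor to the transcription factor DAF-16 and to the TOR kinase, namely daf-2, age-1, daf-18, pdk-1, akt-1, akt-2, sgk-1, daf-16, daf-15 and let-363. The rule that picks them goes by their place in the pathway, although they were listed with earlier results of these data known. They are 10 of the 17118 genes that the array's annotation pairs with a probe set of exactly 1 gene, and they hold 26 of its 22548 probe sets outside the control probe sets. Where a gene had several probe sets, the one with the highest mean over the 12 arrays stands for it. Of these 10 probe sets, 9 passed the filter on low values and were tested, and daf-2 did not.

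Transcripts were measured on 12 Affymetrix arrays of whole wild-type worms (strain N2) in 4 groups of 3 arrays: fed hermaphrodites, fasted hermaphrodites, fed males and fasted males. Fasted worms were without food for 48 h from day 2 of adulthood, while fed worms ate freely, and all 4 groups were collected on day 4. All 4 groups grew at 20 C, and from young adulthood all of them received FUdR (5-fluoro-2'-deoxyuridine) at 200 ug/ml, which blocks DNA synthesis and keeps offspring from hatching. The labels call the samples biological replicates of 3 independent experiments, and they do not say how many worms made up a sample.

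In worms, insulin-like peptides bind the receptor tyrosine kinase DAF-2. The receptor activates the phosphatidylinositol 3-kinase AGE-1, whose lipid product recruits the kinases PDK-1, AKT-1 and AKT-2. The lipid phosphatase DAF-18 removes that product again. The AKT kinases phosphorylate the forkhead factor DAF-16 and keep it out of the nucleus, so that low insulin signalling lets DAF-16 act on its target genes. The pathway is known for its part in dauer formation, stress resistance and lifespan. LET-363, the worm TOR kinase, and DAF-15, the worm Raptor, form a nutrient-sensing complex, and daf-15 is known as a gene that DAF-16 represses. Most of this regulation acts on proteins and lipids, whereas the arrays measured transcripts.

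All values are log2 of the deposited signal. A level is given per array or as a mean ± SD (n = 3 arrays), and a change is a difference of group means ± its standard error (SE) from a limma fit over all tested probe sets. A change was called at an adjusted p under 0.05. The median signal of an array lay between 6.41 and 6.72 in hermaphrodites and between 7.01 and 7.23 in males, so that differences between the sexes depended on the scaling. Centring every array on its median moved the median of all tested probe sets from 0.13 to -0.41 for the difference of males from hermaphrodites in fed worms, and from 0.12 to -0.50 in fasted worms. In whole worms, fewer cells of a type and less RNA per cell cannot be told apart. Of 16 germline markers 15 were lower in fed males and 14 in fasted males than in hermaphrodites of the same food state, and none of the 16 was listed at 0 on any array. Their summed signal ran from 22847 to 23382 in fed hermaphrodites, from 22041 to 22536 in fasted hermaphrodites, from 7702 to 8416 in fed males and from 10435 to 12507 in fasted males.

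In males, 5 of the 9 tested genes rose with fasting (age-1, akt-1, sgk-1, daf-18 and daf-15) and none fell, by 0.54 to 0.88 on the log2 scale, where 19% of all tested probe sets rose. With median centring 2 of the 5 calls were kept, and the number of all tested probe sets that rose went from 3029 to 1298. In hermaphrodites 1 gene, akt-2, rose and none fell, where 5.72% of all tested probe sets rose. Fed males had lower signal than fed hermaphrodites for 5 genes (age-1, daf-18, pdk-1, akt-1 and daf-15), by 0.66 to 2.95, and a higher signal for sgk-1, where 35.9% of all tested probe sets were lower and 38.9% higher. The arrays of the 4 groups overlapped for daf-2, whose probe sets were all dim.

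**Figure D1:**
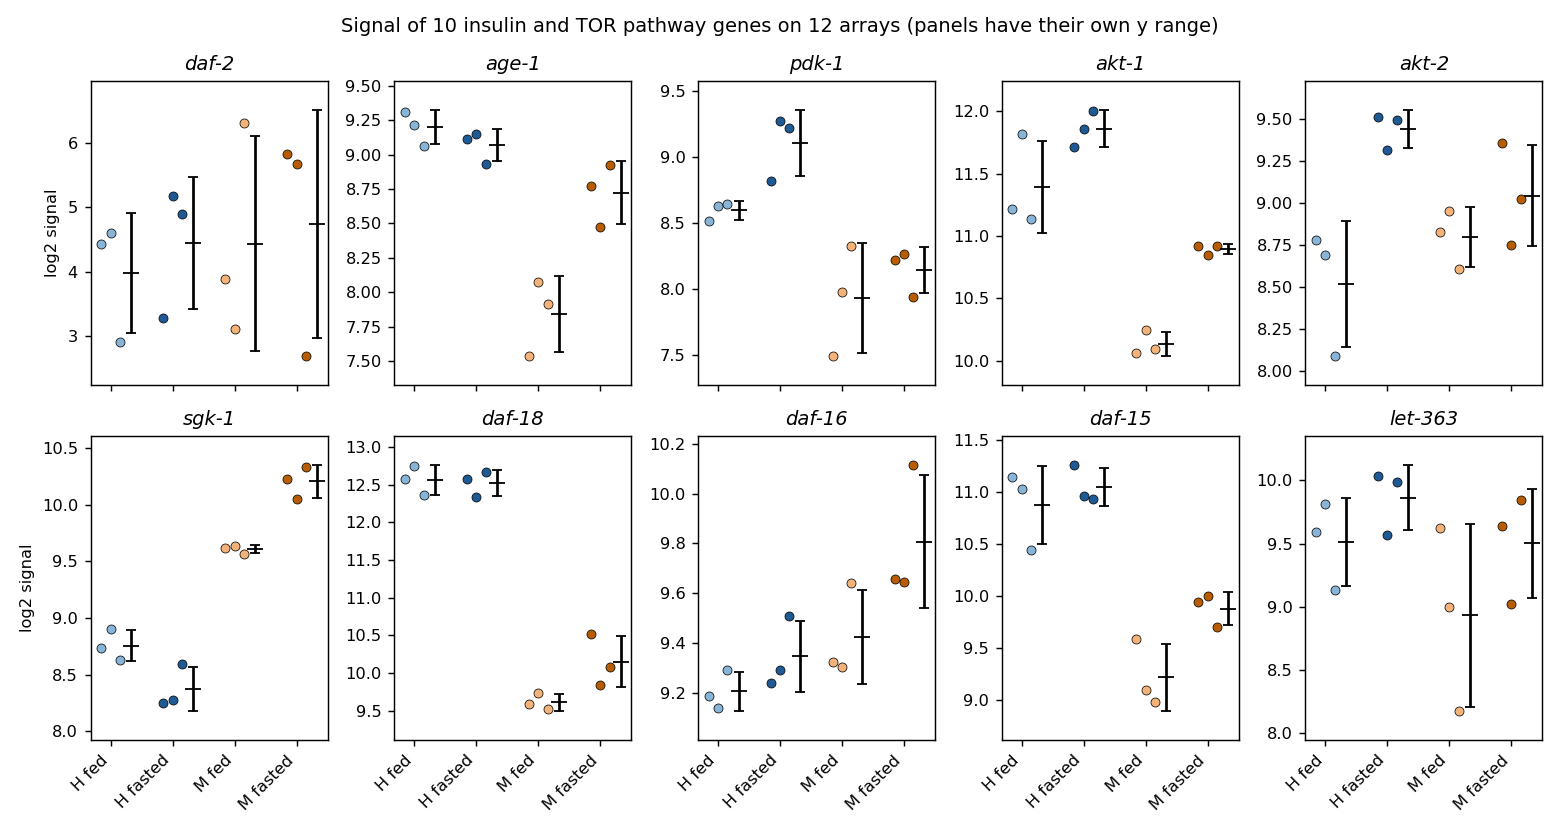
Log2 signal (y axis, with its own range in each panel) of the 10 genes on the 12 arrays. Points are arrays in the 4 groups on the x axis, and bars are group means with SD, n = 3. The 4 groups of sgk-1 are separate from each other, daf-18 splits by sex with hermaphrodites at 12.34 and above and males at 10.51 and below, and the groups of daf-2 and let-363 overlap.

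The receptor gene daf-2 was measured by 4 dim probe sets. The brightest, 172033_x_at, lay above the filter level of 6.01 on 1 of the 12 arrays. Its signal was 4.44, 4.60 and 2.90 in fed hermaphrodites and 3.28, 5.17 and 4.90 in fasted hermaphrodites. In fed males it was 3.88, 3.10 and 6.32, and in fasted males 5.83, 5.68 and 2.69. The ranges of all 4 groups overlapped, and the spread within a group reached an SD of 1.77 in fasted males. The means of 3.98 ± 0.94, 4.45 ± 1.03, 4.43 ± 1.68 and 4.73 ± 1.77, in the same order, differed by less than this spread. The probe set did not enter the fit above the filter. With no filter, limma gave fasting changes of 0.47 ± 0.99 in hermaphrodites (adjusted p = 0.864) and 0.30 ± 0.99 in males (adjusted p = 0.894), and a difference of males from hermaphrodites of 0.45 ± 0.99 when fed (adjusted p = 0.734) and 0.28 ± 0.99 when fasted (adjusted p = 0.842). A change in daf-2 transcript was not detectable at this signal.

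The kinase gene age-1, which encodes the catalytic subunit of the phosphatidylinositol 3-kinase, was lowest in fed males. Probe set 193074_s_at read 9.31, 9.22 and 9.06 in fed hermaphrodites and 9.11, 9.15 and 8.93 in fasted hermaphrodites. It read 7.54, 8.07 and 7.92 in fed males and 8.77, 8.47 and 8.92 in fasted males. The fed males lay below all other arrays, the fasted males lay between them and the hermaphrodites without touching either, and the fed and fasted hermaphrodites overlapped. In males age-1 rose with fasting by 0.88 ± 0.17 (adjusted p = 0.0023), which is 1.84-fold and was seen in 3 of 3 pairs of arrays of the same experiment. In hermaphrodites the change was -0.13 ± 0.17 (adjusted p = 0.694, 95% interval -0.50 to 0.24). The test of the difference between these changes gave 1.01 ± 0.24 (adjusted p = 0.0326). That call was lost without fed hermaphrodite array 1 (adjusted p = 0.0751) or 2 (0.0702), fasted hermaphrodite array 2 (0.0594) or 3 (0.0762), fed male array 1 (0.0674), or fasted male array 1 (0.0577) or 3 (0.0607), and also under other scalings. Fed males were 1.36 ± 0.17 lower than fed hermaphrodites (adjusted p = 1.21e-05). In fasted worms the difference was -0.34 ± 0.17 (adjusted p = 0.0858). It was called with median centring (-0.97, adjusted p = 2.29e-04), with hybridization controls (-0.51, adjusted p = 0.0485) and without fasted male array 3 (-0.44, adjusted p = 0.0499), and it was -0.22 (adjusted p = 0.295) without fasted male array 2. The second probe set of age-1, 171838_x_at, gave 0.064 in hermaphrodites and 1.40 (adjusted p = 0.0056) in males, and the difference of 1.34 between them was not called (adjusted p = 0.0974).

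The phosphatase gene daf-18 differed more between the sexes than any other of the 9 tested genes. Probe set 174631_at read 12.58, 12.75 and 12.36 in fed hermaphrodites and 12.58, 12.34 and 12.66 in fasted hermaphrodites. Its values in fed males were 9.58, 9.73 and 9.52, and those in fasted males were 10.51, 9.84 and 10.09. Each male array lay below each hermaphrodite array, fed males lay below fasted males, and the 2 groups of hermaphrodites overlapped. Males were 2.95 ± 0.17 lower when fed (7.74-fold, adjusted p = 9.78e-09) and 2.38 ± 0.17 lower when fasted (5.19-fold, adjusted p = 8.48e-08). With fasting daf-18 rose in males by 0.54 ± 0.17 (adjusted p = 0.0312), and in hermaphrodites the change was -0.040 ± 0.17 (adjusted p = 0.916). The male call was lost without fed male array 1 (adjusted p = 0.0780) or 3 (0.0862), or fasted male array 1 (0.116) or 3 (0.0538), and without fasted male array 1 the change was 0.35. It was also lost with quantile normalization (adjusted p = 0.143), median centring (0.35, adjusted p = 0.217), hybridization controls (0.0545), no variance trend (0.0577) and the compared arrays alone (0.0547). The difference between the changes was 0.58 ± 0.24 (adjusted p = 0.171). The second probe set, 188215_at, gave -0.30 in hermaphrodites and 0.70 in males (adjusted p = 8.10e-04), with a difference of 1.002 between them (adjusted p = 0.0064).

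Adaptor genes of the same lipid step were measured beside these. The gene aap-1, which encodes the adaptor subunit of the phosphatidylinositol 3-kinase, rose with fasting in males by 0.70 ± 0.14 (adjusted p = 0.0028), against 0.028 ± 0.14 (adjusted p = 0.930) in hermaphrodites. It was 2.59 ± 0.14 lower in fed males than in fed hermaphrodites (adjusted p = 6.04e-09). The difference between its changes was 0.67 ± 0.20 (adjusted p = 0.0668). The gene ist-1, a homologue of insulin receptor substrate proteins, rose in males by 1.95 ± 0.33 (adjusted p = 9.96e-04) from a mean of 6.63 ± 0.51 to 8.58 ± 0.11, and was 2.40 ± 0.33 higher in fasted males than in fasted hermaphrodites.

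The kinase gene pdk-1, whose product activates the AKT kinases, was lower in males at either food state. Probe set 175826_s_at read 8.51, 8.62 and 8.65 in fed hermaphrodites and 8.82, 9.28 and 9.22 in fasted hermaphrodites. Fed males gave 7.49, 7.97 and 8.33, and fasted males gave 8.22, 8.27 and 7.94. The fasted hermaphrodites lay above the fed ones, all male arrays lay below both, and the fed and fasted males overlapped. Neither fasting change was called, with 0.51 ± 0.21 in hermaphrodites (adjusted p = 0.144) and 0.21 ± 0.21 in males (adjusted p = 0.504). Males were lower by 0.66 ± 0.21 when fed (adjusted p = 0.0110) and by 0.96 ± 0.21 when fasted (adjusted p = 0.0011). Without fed male array 1 the first of these differences was -0.44 and was no longer called (adjusted p = 0.0545). In the same comparison 2 other tested probe sets, 175950_s_at and 191385_s_at, gave -0.66 (adjusted p = 0.0592) and -0.74 (adjusted p = 0.213). In fasted worms they gave -0.69 (adjusted p = 0.0527) and -0.22 (adjusted p = 0.716), so neither was called in either food state.

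The 2 AKT genes encode the kinases that act directly on DAF-16. The fasting change of akt-1 was called in males and that of akt-2 in hermaphrodites, and the difference between the sexes in this change was called for neither. The signal of akt-1 on probe set 175808_s_at was 11.22, 11.82 and 11.14 in fed hermaphrodites and 11.71, 11.86 and 12.005 in fasted hermaphrodites. It was 10.07, 10.25 and 10.10 in fed males and 10.92, 10.85 and 10.92 in fasted males. Fed males were lowest, fasted males came next, all hermaphrodite arrays were higher, and the fed and fasted hermaphrodites overlapped. In males akt-1 rose by 0.76 ± 0.16 (adjusted p = 0.0039). In hermaphrodites the change was 0.47 ± 0.16 (adjusted p = 0.0850), and without fed hermaphrodite array 2, the highest of its group, it was 0.68 and called (adjusted p = 0.0045). The difference between the changes was 0.29 ± 0.22 (adjusted p = 0.493, 95% interval -0.20 to 0.78). Males were lower by 1.26 ± 0.16 when fed (adjusted p = 1.39e-05) and by 0.96 ± 0.16 when fasted (adjusted p = 1.51e-04). The second probe set, 194058_s_at, gave 0.079 in hermaphrodites (adjusted p = 0.751), 0.54 in males (adjusted p = 0.0062) and 0.46 for the difference (adjusted p = 0.135).

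For akt-2, probe set 175809_at read 8.78, 8.69 and 8.09 in fed hermaphrodites and 9.51, 9.31 and 9.50 in fasted hermaphrodites. Fed males read 8.83, 8.96 and 8.61, and fasted males read 9.36, 8.75 and 9.03. The fasted hermaphrodites lay above the fed ones without overlap, whereas the fed and fasted males overlapped, as did the sexes when fed and when fasted. In hermaphrodites akt-2 rose by 0.92 ± 0.20 (1.89-fold, adjusted p = 0.0101, in 3 of 3 pairs), and the call was kept in all 22 alternative settings. In males the change was 0.25 ± 0.20 (adjusted p = 0.412). The difference between the sexes in this change was -0.67 ± 0.29 (adjusted p = 0.185), so a sex dependence was not shown for akt-2. Neither sex difference was called, with 0.28 ± 0.20 in fed worms (adjusted p = 0.227) and -0.40 ± 0.20 in fasted worms (adjusted p = 0.0963). The latter was called without fed hermaphrodite array 3 (adjusted p = 0.0490) and without fasted male array 1 (-0.55, adjusted p = 0.0369), and with median centring it was -1.02 (adjusted p = 5.52e-04). Without fasted male array 2 it was -0.25 (adjusted p = 0.320). A second probe set of akt-2, 194014_s_at, gave 0.57 (adjusted p = 0.0452) in hermaphrodites and 0.28 in males.

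The gene sgk-1 encodes a kinase related to the AKT kinases that also acts with the second TOR complex. Its only probe set, 192233_at, read 8.74, 8.91 and 8.63 in fed hermaphrodites and 8.25, 8.27 and 8.59 in fasted hermaphrodites. Fed males read 9.62, 9.64 and 9.57, and fasted males read 10.23, 10.05 and 10.34. The groups were separate in the order fasted hermaphrodites, fed hermaphrodites, fed males and fasted males. In males sgk-1 rose with fasting by 0.60 ± 0.14 (adjusted p = 0.0062), while the change in hermaphrodites was -0.38 ± 0.14 and was not called (adjusted p = 0.0951). The difference between the changes was 0.98 ± 0.19 (adjusted p = 0.0147, and 0.0570 with hybridization controls). Males were higher by 0.85 ± 0.14 when fed (adjusted p = 9.75e-05) and by 1.84 ± 0.14 when fasted (3.57-fold, adjusted p = 1.27e-07). In fed males age-1, pdk-1 and akt-1 were lower. With each array centred on its median, the male fasting change was 0.41 (adjusted p = 0.0700) and the fed sex difference 0.32 (adjusted p = 0.0660).

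The gene daf-16 itself varied little. Probe set 175823_s_at read 9.19, 9.14 and 9.29 in fed hermaphrodites and 9.24, 9.29 and 9.51 in fasted hermaphrodites. Fed males read 9.32, 9.30 and 9.64, and fasted males read 9.66, 9.65 and 10.11. The group means were 9.21 ± 0.08, 9.35 ± 0.14, 9.42 ± 0.19 and 9.81 ± 0.27 in that order. The fasted males lay above all other arrays, and neighbouring groups below them overlapped. In hermaphrodites the fasting change was 0.14 ± 0.15 (adjusted p = 0.630, 95% interval -0.20 to 0.48). In males it was 0.38 ± 0.15 (adjusted p = 0.0861), positive in 3 of 3 pairs. It passed the threshold with a replicate block shared by both sexes (adjusted p = 0.0163). It also passed without fed male array 3 (adjusted p = 0.0478) and with hybridization controls (adjusted p = 0.0490). It was 0.23 (adjusted p = 0.303) without fasted male array 3, 0.25 (adjusted p = 0.315) with quantile normalization and 0.19 (adjusted p = 0.526) with median centring. Fasted males were 0.46 ± 0.15 higher than fasted hermaphrodites (adjusted p = 0.0179), and with median centring this difference was -0.17. The call was lost without fasted hermaphrodite array 1 (adjusted p = 0.0588) or 2 (0.0513) or fasted male array 3 (0.0823, with a difference of 0.31), and with hybridization controls (0.29, adjusted p = 0.115). In fed worms the difference was 0.22 ± 0.15 (adjusted p = 0.219). With median centring it was -0.32 (adjusted p = 0.115), and with quantile normalization it was 0.51 and called (adjusted p = 0.0127).

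The 3 other probe sets of daf-16 gave fasting changes in males of 0.64 (175678_at, adjusted p = 0.0314), 0.21 (181992_s_at) and 0.30 (188176_s_at). In hermaphrodites the same probe sets gave 0.23, -0.18 and -0.0037. In males the 4 probe sets shared their sign and in hermaphrodites they did not. Probe sets whose names end in s_at can match more than 1 transcript, and the isoforms of daf-16 were not separated here.

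The TOR branch was measured by daf-15 and let-363. For daf-15, probe set 174605_at read 11.14, 11.03 and 10.44 in fed hermaphrodites and 11.25, 10.96 and 10.93 in fasted hermaphrodites. It read 9.58, 9.09 and 8.98 in fed males and 9.94, 9.995 and 9.70 in fasted males. All male arrays lay below all hermaphrodite arrays, the fed males lay below the fasted males, and the hermaphrodite groups overlapped. In males daf-15 rose by 0.66 ± 0.20 (adjusted p = 0.0284), and in hermaphrodites the change was 0.18 ± 0.20 (adjusted p = 0.645). The male call was lost without fed male array 2 (adjusted p = 0.0910) or 3 (0.0982), or fasted male array 1 (0.0725) or 2 (0.0906), and with quantile normalization (0.0865) or median centring (0.141). The second probe set, 189352_s_at, gave 0.76 in males (adjusted p = 0.0103) and -0.032 in hermaphrodites. Males were lower by 1.65 ± 0.20 when fed (adjusted p = 9.67e-06) and by 1.17 ± 0.20 when fasted (adjusted p = 2.07e-04).

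The kinase gene let-363 had the widest spread among the tested genes. Probe set 174977_at read 9.59, 9.81 and 9.14 in fed hermaphrodites and 10.04, 9.57 and 9.99 in fasted hermaphrodites. Fed males read 9.62, 8.996 and 8.18, and fasted males read 9.64, 9.02 and 9.85. Neighbouring groups overlapped, and the SD of the fed males was 0.72. None of its 5 comparisons was called. The fasting changes were 0.35 ± 0.33 in hermaphrodites (adjusted p = 0.559) and 0.57 ± 0.33 in males (adjusted p = 0.227, 95% interval -0.14 to 1.28). Males differed by -0.58 ± 0.33 when fed (adjusted p = 0.123) and by -0.36 ± 0.33 when fasted (adjusted p = 0.339). Without fed male array 1 the fed difference was -0.93 and called (adjusted p = 0.0173), and without fed male array 3 it was -0.21 (adjusted p = 0.530). The male fasting change was 0.92 (adjusted p = 0.0521) and 0.20 (adjusted p = 0.691) without the same arrays. A second probe set, 188271_at, gave 0.62 in males with fasting (adjusted p = 0.0251) and -0.95 for fed males against fed hermaphrodites (adjusted p = 4.93e-04).

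**Figure D2:**
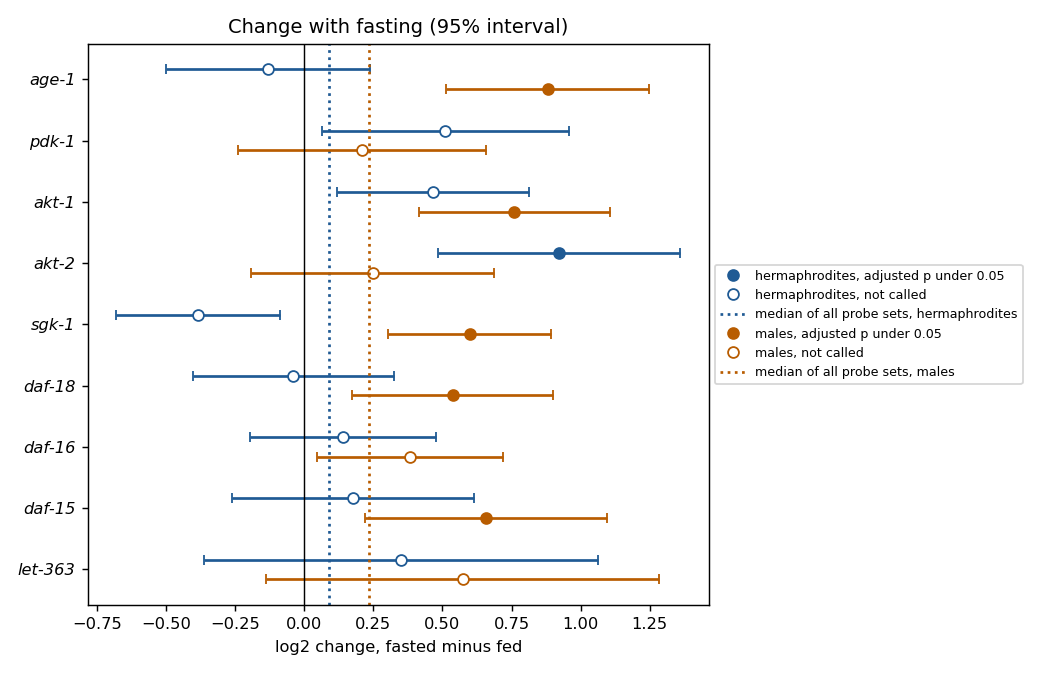
Log2 change with fasting (x axis, fasted minus fed) of the 9 tested genes (y axis) in hermaphrodites and in males. Bars are 95% intervals from limma, filled points have an adjusted p under 0.05, and dotted lines are the medians of all tested probe sets, 0.09 and 0.23. The 9 male changes lie from 0.21 to 0.88, and the hermaphrodite changes lie from -0.38 to 0.92.

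The counts with fasting were read against the arrays as a whole. In hermaphrodites 1 of 9 tested genes was called, where 11.4% of all tested probe sets were called in either direction (5.72% rose and 5.69% fell). The count is near that background. In males 5 of 9 rose, where 27.3% of all probe sets were called, 19% up and 8.31% down. The median change of the 9 genes was 0.18 in hermaphrodites, against 0.09 over all tested probe sets, and 0.57 in males, against 0.23. Arrays of fed and fasted worms did not overlap for 3 of the 9 genes in hermaphrodites (30.2% of all probe sets) and for 6 of the 9 in males (44.6%). The male count depended on the scaling, with 2 called genes under median centring (age-1 and akt-1) and 3 under quantile normalization. The replicate block gave 6, adding daf-16. Over all 15913 tested probe sets the number that rose in males moved as well, from 3029 in the main fit. It was 1298 with median centring, 2152 with quantile normalization and 3814 with the block. Among cell type markers, 11 of 16 germline markers rose with fasting in males and none fell (median 0.55), against 1 up and 1 down in hermaphrodites (median -0.16). In males 5 of 15 oocyte markers rose and 2 fell, 8 of 10 muscle markers fell, and 3 of 11 intestine markers fell while 1 rose. In hermaphrodites no oocyte marker was called, 5 of 10 muscle markers fell, and 6 of 11 intestine markers fell while 1 rose. The part of these markers in the changes of the 9 genes was not tested.

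The change with fasting differed between the sexes for 2 of 9 genes, age-1 and sgk-1, and both differences were toward a more positive change in males. Of all tested probe sets 5.28% were called in either direction, 3.82% with the more positive and 1.46% with the more negative change in males. The median difference of the 9 genes was 0.29, against 0.11 over all tested probe sets. In limma with arrays scaled on the hybridization controls the count was 0, with 2 genes at an unadjusted p under 0.05. It was 1 with quantile normalization, with median centring and without the variance trend, and 1 or 2 when single arrays were left out. Over all tested probe sets 840 were called in the main fit and 354 with hybridization controls. Quantile normalization called 728, median centring 463 and the fit without the variance trend 563.

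**Figure D3:**
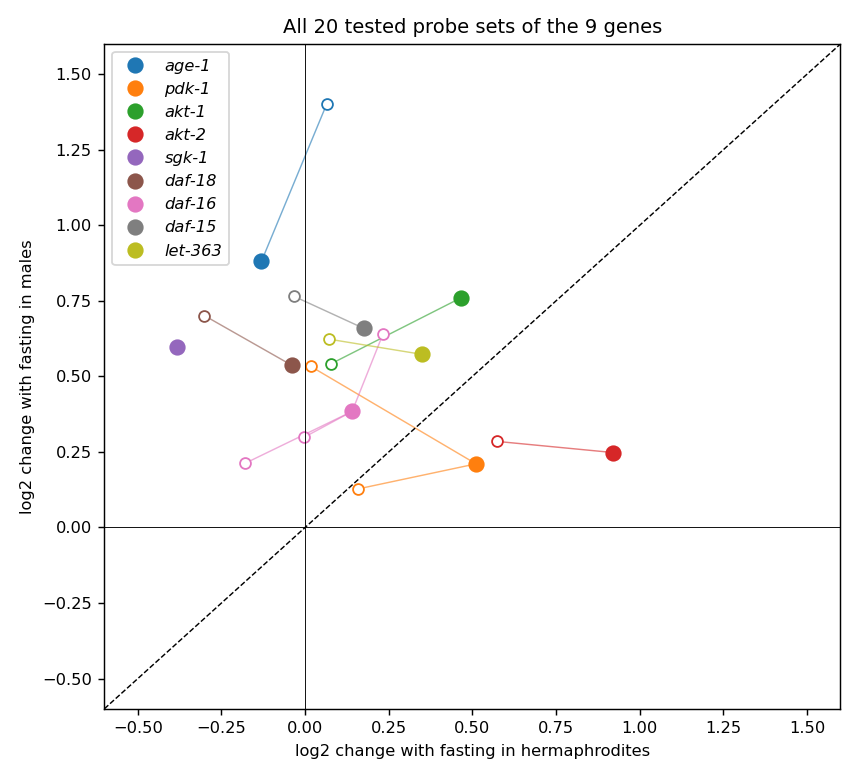
Log2 change with fasting in hermaphrodites (x axis) and in males (y axis) for all 20 tested probe sets of the 9 genes. Filled points are the probe sets with the highest mean and open points the others. All 20 male changes are above 0, and 13 of the 20 hermaphrodite changes are. The medians of all tested probe sets are 0.23 in males and 0.09 in hermaphrodites.

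The same comparison over all probe sets of these genes used 20 tested probe sets. With fasting in males 20 of 20 changes were positive and 11 were called, all of them up, where 19% of all tested probe sets rose. The median male change of all tested probe sets was itself above 0, at 0.23. In hermaphrodites 13 were positive and 7 negative, and the 2 called were both of akt-2, where 5.72% of all tested probe sets rose. The difference between the changes was called for 3 probe sets and was more positive in males for 16 of 20. Of all tested probe sets 3.82% were called with the more positive and 1.46% with the more negative change in males. The median difference of all tested probe sets was 0.11. Probe sets of 1 gene share its transcript and are not independent.

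Between the sexes, 6 of 9 genes were called in fed worms, 1 higher and 5 lower in males, where 74.8% of all tested probe sets were called, 38.9% higher and 35.9% lower. In fasted worms 6 of 9 were called as well, with sgk-1 and daf-16 higher and daf-18, pdk-1, akt-1 and daf-15 lower, where 70.7% of all tested probe sets were called, 38% higher and 32.7% lower. The counts in either direction are thus near the background in both food states. The median difference was -0.66 in fed and -0.40 in fasted worms, against 0.13 and 0.12 over all tested probe sets. Arrays of the sexes did not overlap for 7 of the 9 genes in each food state (78.3% of all probe sets when fed and 74.3% when fasted). With median centring 8 of 9 were called in fasted worms, and let-363 was then lower in males both when fed (-1.12, adjusted p = 0.0086) and when fasted (-0.99, adjusted p = 0.0174). Over all tested probe sets that centring called 7785 lower in fasted males, against 5206 in the main fit. In the main fit all 15 oocyte markers were lower and all 12 sperm markers higher in males in either food state, beside the germline markers given above. In fed males 10 of 10 muscle, 13 of 15 neuron, 9 of 11 intestine and 4 of 4 male somatic markers were higher, and in fasted males 6 of 10, 13 of 15, 9 of 11 and 4 of 4. Of 6 tested hypodermis markers 3 were lower and 1 higher in males, in fed and in fasted worms alike. The part of all these markers in the sex differences of these 9 genes was not tested.

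**Figure D4:**
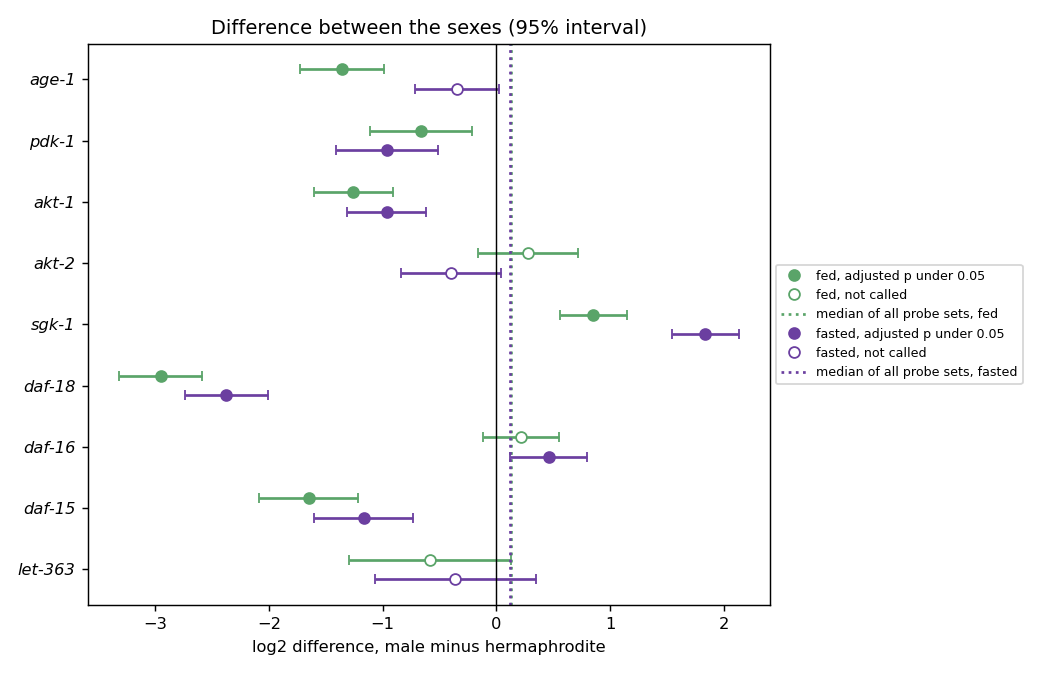
Log2 difference between the sexes (x axis, male minus hermaphrodite) of the 9 tested genes (y axis) in fed and in fasted worms. Bars are 95% intervals from limma, filled points have an adjusted p under 0.05, and the dotted lines are the medians of all tested probe sets, 0.13 and 0.12. The differences of daf-18 are -2.95 and -2.38, and those of sgk-1 are 0.85 and 1.84.

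Upstream of the receptor, 20 of 24 measured insulin-like peptide genes were tested. The counts of this and the next lists stand beside the shares of all tested probe sets. With fasting, 5.72% rose and 5.69% fell in hermaphrodites, and 19% rose and 8.31% fell in males. In fed worms 38.9% were higher and 35.9% lower in males, and in fasted worms 38% and 32.7%. In hermaphrodites 3 rose with fasting (ins-22 by 1.64 ± 0.31, ins-23 by 1.51 ± 0.25, and ins-17) and 1, ins-7, fell by 4.37 ± 0.29. In males 1 rose, ins-35, by 3.83 ± 0.37, and 5 fell, among them ins-7 by 2.09 ± 0.29 and ins-33 by 1.49 ± 0.39. In fed males 17 of the 20 were higher and 2 lower than in fed hermaphrodites.

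Among the 7 adaptor and phosphatase 2A genes, which include ist-1 and aap-1, 2 rose with fasting in hermaphrodites (paa-1 by 0.48 ± 0.11 and let-92 by 0.37 ± 0.10) and 4 rose in males (ist-1, aap-1, let-92 by 0.37 ± 0.10 and paa-1 by 0.32 ± 0.11). The genes paa-1 and let-92 encode subunits of the phosphatase that opposes AKT-1. With median centring both calls in each sex were lost. In hermaphrodites the call of let-92 was also lost without fed array 1 (adjusted p = 0.119) or 3 (0.0953) or fasted array 1 (0.0863) or 3 (0.108). In males the call of let-92 was also lost without fed array 2 (adjusted p = 0.0725) or fasted array 2 (0.0551), and that of paa-1 was lost in 18 of 22 alternatives, with an adjusted p of up to 0.549. None of the 7 was called for the difference between the sexes in the fasting change, where 2 had an unadjusted p under 0.05. In fed males 5 were lower and 1 higher than in fed hermaphrodites, and in fasted males 4 were lower and 1 higher. With fasting 5.72% of all tested probe sets rose in hermaphrodites and 19% in males. Between the sexes 74.8% were called in fed and 70.7% in fasted worms.

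Of 13 genes of the TOR complexes and their inputs, none was called with fasting in hermaphrodites, and none had an unadjusted p under 0.05 there. Of all tested probe sets 11.4% were called there. In males 3 rose and 1 fell, where 19% of all tested probe sets rose and 8.31% fell. The gene rict-1, which encodes the Rictor subunit of the second TOR complex, rose by 0.80 ± 0.21 (adjusted p = 0.0136), lmtr-2 rose by 0.45 ± 0.11 (adjusted p = 0.0076), and sesn-1, the worm sestrin, fell by 0.72 ± 0.19 (adjusted p = 0.0137). The third gene that rose, sinh-1, lost its call in 16 of 21 alternatives, and lmtr-2 lost its call with median centring. The call of rict-1 was lost without fed male array 1 (adjusted p = 0.0577) or fasted male array 2 (0.0606), and that of sesn-1 without fed male array 1 (0.0501) or fasted male array 3 (0.0553). In fed worms 9 of the 13 were lower and 3 higher in males, with rict-1 lower by 2.71 ± 0.21 (adjusted p = 1.55e-07), nprl-3 lower by 1.87 ± 0.21, and hlh-30, the worm TFEB, higher by 1.98 ± 0.38 (adjusted p = 4.20e-04). In fasted worms 7 were lower and 2 higher. Of all tested probe sets 35.9% were lower and 38.9% higher in fed males, and 32.7% and 38% in fasted males.

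Of 29 listed genes whose products regulate DAF-16 or act with it, 26 had a probe set and 20 were tested. With fasting in hermaphrodites 2 rose, smk-1, a nuclear partner of DAF-16, by 0.61 ± 0.13 (adjusted p = 0.0085) and eak-7 by 0.47 ± 0.14 (adjusted p = 0.0489, a call lost in 15 of 22 alternatives). Of all tested probe sets 5.72% rose in hermaphrodites and 19% in males. With the replicate block 10 of the 20 genes rose in males, where the rising probe sets among all 15913 tested went from 3029 to 3814. In the main fit 6 of the 20 genes rose in males and none fell. Among them eak-7 rose by 1.09 ± 0.14 (adjusted p = 1.53e-04), prmt-1, a methyltransferase that acts on DAF-16, by 0.96 ± 0.12 (adjusted p = 9.74e-05), and bar-1, a beta-catenin, by 0.77 ± 0.17 (adjusted p = 0.0055). In fed males 10 of the 20 were lower and 4 higher than in fed hermaphrodites. The repressor gene hcf-1 was lower by 2.76 ± 0.16 and eak-7 by 2.70 ± 0.14, whereas pqm-1, a transcription factor that opposes DAF-16, was higher by 1.75 ± 0.12 and jnk-1 by 1.54 ± 0.20. In fasted males 8 were lower and 4 higher. In either direction 14 of the 20 were called in fed and 12 in fasted worms, where 74.8% and 70.7% of all tested probe sets were called.

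Downstream, 17 genes that DAF-16 is known to raise (class I targets) were tested. In hermaphrodites 10 rose with fasting and 1 fell, and in males 7 rose and 2 fell. Over all tested probe sets 5.72% rose and 5.69% fell in hermaphrodites, and 19% rose and 8.31% fell in males. For the small heat shock protein gene hsp-12.6 the change was 6.58 ± 0.85 in hermaphrodites (adjusted p = 2.33e-04) and 6.36 ± 0.85 in males (adjusted p = 2.05e-04), and the glycerol channel gene aqp-1 rose by 3.75 ± 0.29 and 2.32 ± 0.29. The metallothionein gene mtl-1 rose by 1.84 ± 0.33 in hermaphrodites (adjusted p = 0.0027), and in males its change was 0.52 ± 0.33 (adjusted p = 0.275, and 0.0259 with the replicate block). The superoxide dismutase gene sod-3 rose in hermaphrodites by 0.93 ± 0.25 (adjusted p = 0.0318), a call lost without fed array 1 (0.121) or 2 (0.0639) or fasted array 3 (0.122), and its change in males was -0.58 ± 0.25 (adjusted p = 0.109, and 0.0486 without fasted male array 1). The lysozyme gene lys-7 fell in both sexes (-0.77 ± 0.16 in hermaphrodites and -2.63 ± 0.16 in males).

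Among the class I targets the change differed between the sexes for 6 genes, 2 more positive and 4 more negative in males, and the replicate block gave 2 and 8. Over all tested probe sets the main fit called 3.82% with the more positive and 1.46% with the more negative change in males. With the block these went from 608 to 1179 and from 232 to 462 probe sets. The heat shock gene sip-1 and lea-1 had the more positive change in males. In fed males 10 of the 17 were higher and 2 lower than in fed hermaphrodites, where 38.9% of all tested probe sets were higher and 35.9% lower. Of 9 tested genes that DAF-16 is known to lower (class II targets), 5 fell with fasting in hermaphrodites and none rose, while in males 5 fell and 1 rose. Over all tested probe sets 5.69% fell in hermaphrodites and 8.31% in males. The changes of dod-19 were -4.45 ± 0.27 in hermaphrodites and -4.02 ± 0.27 in males. The vitellogenin genes vit-2 and vit-5 are on the class II list and are made by hermaphrodites, and they were 6.71 ± 0.28 and 6.13 ± 0.27 lower in fed males. Intestine markers fell with fasting for 6 of 11 genes in hermaphrodites and 3 of 11 in males, and their part in the target changes was not tested. The lists overlap: ins-7 is on the insulin-like peptide and class II lists, and pept-1 on the class II and intestine lists.

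**Figure D5:**
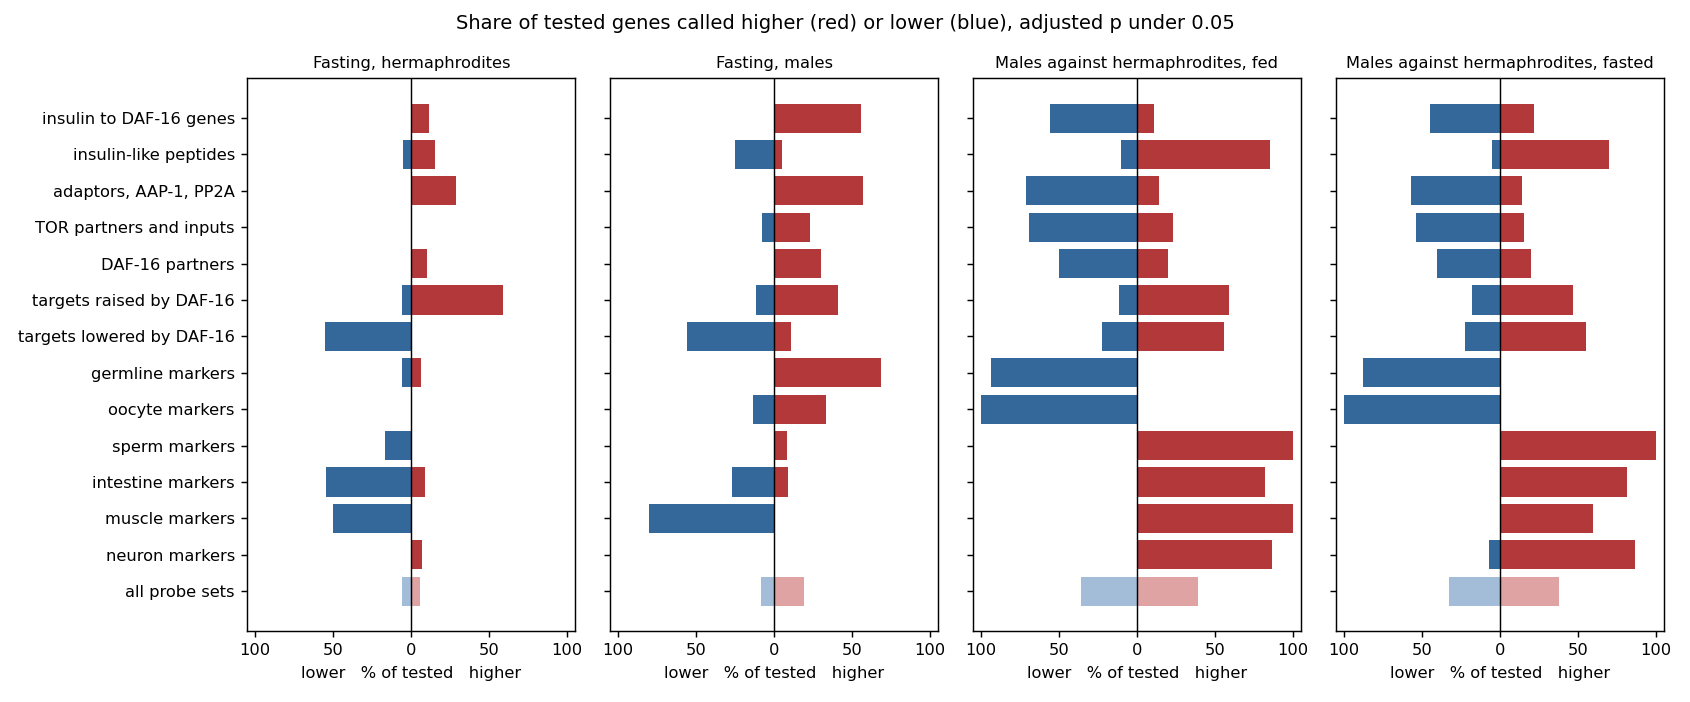
Share of the tested genes of each list shown that were called higher (red, to the right) or lower (blue, to the left), in percent (x axis), by comparison (panels), with the share of all tested probe sets in the bottom row. Hypodermis and male somatic markers are not drawn. In the class I row 10 of 17 genes rose with fasting in hermaphrodites and 7 of 17 in males, and in the TOR row none of 13 was called in hermaphrodites.

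For daf-2, daf-16 and let-363 the array was searched for genes with the nearest course over the 12 arrays, by the root mean square difference of the centred signals. The signals were not scaled to a common spread, so a gene that varied little, such as daf-16, lies near other genes that varied little. Small distances for daf-16 are therefore not read as a shared course. For daf-16, of 7509 genes searched, the nearest were sel-2 (0.098), nfs-1 (0.113) and amdh-1 (0.118), where the median gene was at 0.699. For let-363 they were utp-14 (0.235), sax-7 (0.238) and soap-1 (0.270), with the median gene at 0.797. The SD of let-363 in fed males was 0.72, so its matches can follow single arrays and are not read as a shared course. For daf-2 the nearest genes were cct-8 (0.773), srx-45 (0.818) and fkh-2 (0.876), with the median gene at 1.34. Because daf-2 lay below the filter with a wide spread, no shared course can be read from its matches. The group means of cct-8 were lower in males (5.79 fed and 5.89 fasted) than in hermaphrodites (6.12 and 6.33). Those of daf-2 were 4.43 and 4.73 in males and 3.98 and 4.45 in hermaphrodites.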

How the data were processed

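Biotin-labelled cRNA was made from 250 ng of total RNA with 16 h of in vitro transcription, per the labels' protocols. The values the authors deposited are log2 signals, made with MAS5 (version not given) per the submitters' processing notes. Their scaling is visible in the files: the trimmed mean of the signal, leaving out 2% at each end, was 500.1 to 500.2 on all 12 arrays. Background and detection values were not used here. Arrays hold no read depth, and their number limits the precision.

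Probe sets were tested where at least 3 arrays exceeded a log2 signal of 6.01 (the 40th percentile), which kept 15913, with 77 control probe sets left out. Gene names came from the platform annotation (20766 probe sets with 1 gene, 887 with several, 895 with none). A model of the 4 group means was fitted over all 12 arrays in R 4.3.3 with limma 3.58.1 (lmFit, eBayes with trend). The two-sided p-values were Benjamini-Hochberg adjusted over all tested probe sets, separately for each of 5 contrasts. The contrast of fasting in hermaphrodites was also run on simulated arrays with independent noise, no sex difference and no shift in scaling. That run cannot show how the sex contrasts or the scalings behave. Tables and figures were made with Python 3.11.15, pandas 2.3.3 and matplotlib 3.10.9.

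The genes, the pathway, target and marker lists, and the comparisons were chosen with earlier results of these data known, so their counts are descriptions. From each pathway and target list the naming rule takes up to 4 called genes per direction and comparison, those with the largest changes, plus sod-3, mtl-1, hsp-12.6 and ins-7. The text prints a part of these. Deviations from the group means correlated weakly between fed and fasted arrays of the same experiment. The r was 0.189, 0.129 and 0.259 in hermaphrodites and 0.157, 0.119 and 0.274 in males, all above the minimum of 0.1 used here. Between males and hermaphrodites r was 0.082, 0.080 and 0.204 when fed. When fasted it was 0.133, 0.052 and 0.197, so the sexes fell partly below that minimum. The numbers in the titles were therefore taken to pair fed with fasted arrays of 1 sex. The main fit did not use this pairing, and its SE and adjusted p are unpaired. The replicate block was run only as an alternative. It put arrays of both sexes with the same number into 1 block, although r between the sexes fell partly below the minimum. Alternatives were 2 pseudocounts on the linear signal (20.0 and 64.6), no filter, the 60th percentile as filter, median centring, quantile normalization, scaling to 18 hybridization control probe sets, no variance trend, the compared arrays alone, a replicate block, the other probe sets, and leaving out each array. No sequence or coordinate is given.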

Additional observations from a re-analysis of the deposited data

Results flagged for a closer look

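A change with fasting that differed between the sexes, by the test of the difference itself in limma, was found for 2 of the 9 tested pathway genes, age-1 (1.01, change in males minus change in hermaphrodites, log2) and sgk-1 (0.98). Among the listed genes around them, 10 more had such a difference. They were 3 of 20 tested insulin-like peptide genes, 1 of 20 DAF-16 regulators and partners, and 6 of 17 class I targets. On the class II list it was 1 of 9, ins-7 again. None of the 7 adaptor and phosphatase 2A genes and none of the 13 TOR genes was called. The same test called 5.28% of all tested probe sets. The more positive change in males was that of the insulin-like peptide genes ins-35 (3.07) and ins-7 (2.28), of prmt-1 (0.72) and of the DAF-16 targets sip-1 (2.31) and lea-1 (1.64). For ins-7 this was a smaller fall in males. The more negative change in males was that of ins-22 (-1.99) and of the targets hsp-12.3 (-2.72), djr-1.2 (-2.62), lys-7 (-1.86) and sod-3 (-1.51). The calls of ins-35, ins-7, sip-1, lea-1, hsp-12.3 and lys-7 were kept in every alternative, and those of ins-22, prmt-1, djr-1.2 and sod-3 were lost in 6, 10, 13 and 9 of them. With 3 arrays per group, no single array was tested as an outlier.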

How the results depend on the processing

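Of 45 results of the 9 tested genes 20 were called, and 12 of these kept their call in every one of 22 alternatives, 8 lost it in some, and 1 changed sign. Of 25 that were not called, 7 were called in some alternative (other probe sets not counted). Of 131 calls of the named listed genes 103 were kept in every alternative and 0 changed sign. The number of the 9 genes called with fasting in males was 2 with median centring and 3 with quantile normalization. The number with a sex-dependent change was 0 with hybridization controls and 1 with median centring, with quantile normalization and without the variance trend. Leaving out single arrays gave 1 to 2 called genes in hermaphrodites, 3 to 5 in males, 1 to 2 for the sex dependence, 6 in fed worms and 5 to 7 in fasted worms. With the replicate block 6 genes were called with fasting in males, and for single pathway genes the block changed 1 call, that of daf-16 in males (adjusted p = 0.0163).

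Signs of the tested genes turned as follows, mostly in changes near 0. With median centring the male difference from hermaphrodites was -0.32 (fed) and -0.17 (fasted) for daf-16, -0.26 (fed) for akt-2, -0.10 for hsp-12.6 and -0.031 for sod-3 (both fasted). With quantile normalization daf-18 changed by 0.033 in hermaphrodites. Other probe sets gave 0.064 for age-1, -0.18 and -0.0037 for daf-16 and -0.032 for daf-15 with fasting in hermaphrodites, 0.52 for pdk-1 in the sex dependence, and -0.29 for akt-2 between fed worms. Without single arrays, the fasting change in hermaphrodites ran from -0.14 to 0.055 for daf-18 and from -0.037 to 0.31 for daf-15, that in males from -0.0093 to 0.41 for pdk-1, and the sex dependence from -0.16 to 0.57 for let-363 and from -1.14 to 0.67 for hsp-12.6. The sex difference of hsp-12.6 then ran from -0.15 to 1.66 in fed and from -0.044 to 0.95 in fasted worms. For hsp-12.6 the sex dependence was 0.40 and 0.31 with the pseudocounts of 64.6 and 20.0 and 0.24 with quantile normalization. For daf-2, below the filter, leaving out single arrays also turned signs. Its fasting change then ran from -0.37 to 1.32 in males and from -0.071 to 1.06 in hermaphrodites, and its sex dependence from -0.83 to 0.85. The cause of all these turns was not tested.

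The called shares that were higher among all tested probe sets moved with the scaling, from 50.1% to 34.7% with median centring for fasting in hermaphrodites, from 69.6% to 44.2% in males, from 72.4% to 51.6% for the sex dependence, and from 52.0% to 35.9% in fed and 53.7% to 32.8% in fasted worms for the sexes. Quantile normalization gave 56.6% in males and 49.9% for the sex dependence. The replicate block raised the probe sets with a sex-dependent change from 840 to 1641. Signal limits daf-2, which was tested only with no filter and was not called.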
